A study of Homo sapiens with 8 samples.

Results

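The transcripts of desmosomes and corneodesmosomes were followed in EPC2-hTERT, a human esophageal epithelial line immortalised with telomerase. The 10 genes were taken by symbol from 25369 genes in the deposited expression table. They are the desmogleins DSG1, DSG2 and DSG3, the desmocollins DSC2 and DSC3, corneodesmosin (CDSN), desmoplakin (DSP), the plakophilins PKP1 and PKP3, and plakoglobin (JUP). Libraries of cells transduced with a lentiviral short hairpin RNA against HIF1A (HIF1A-KD, n = 4) were compared with libraries of cells transduced with a control hairpin (shCtrl, n = 4). The product of HIF1A is the part of the HIF-1 transcription factor whose stability depends on oxygen. Both lines were cultured on membranes with 0.4 µm pores for 2 days, under 1.8 mM calcium for 5 days and at an air interface for 4 days, which lets keratinocytes form layers. DMSO and dimethyloxalylglycine, an inhibitor of the hydroxylases that mark HIF1A for degradation, appear in the treatment notes, and no library is assigned to either. The labels do not say whether a line was 1 clone, or whether libraries of a group came from separate cultures, so p-values measure the spread between these libraries, which may be technical.

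Desmosomes are buttons of adhesion that tie the keratin filaments of neighbouring cells together. Desmogleins and desmocollins cross the membrane and bind each other between cells, plakoglobin and plakophilins hold their tails, and desmoplakin joins this plaque to keratins. In epidermis DSG3 and DSC3 are typical of the lower layers and DSG1 of the upper ones. Their layers in these esophageal cultures were not tested. In cornifying cells corneodesmosin is added to the outer side of the junction, which is then called a corneodesmosome and is later cut by kallikrein proteases.

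Expression is given as the deposited RPKM, that is, reads corrected for the length of the gene and the depth of the library. The values imply 38068729 to 65326907 reads per library. HIF1A, the targeted transcript, held 27.6, 19.0, 54.8 and 45.0 RPKM in HIF1A-KD libraries 1 to 4, against 95.2, 51.4, 89.8 and 122 RPKM in shCtrl libraries 1 to 4. In all 4 pairs of equal number HIF1A-KD was the lower (log2 differences −1.78 to −0.71), but HIF1A-KD 3 lay above shCtrl 2. In limma HIF1A had a log2 change of −1.34 (adjusted p = 0.319 unpaired, and 0.0253 when the library number was a block). The authors' own comparison, whose tool is not given, lists HIF1A at a moderated log2 ratio of −1.29 with an adjusted p of 7e-12. The 7 squamous epithelial markers summed to 21240 to 26630 RPKM in HIF1A-KD and 19970 to 26050 RPKM in shCtrl. Of 7 fibroblast markers 6 stayed under 0.5 RPKM in every library. The list summed to 14.1 to 19.2 RPKM in HIF1A-KD and 21.2 to 27.7 RPKM in shCtrl, with COL1A1 the highest, and its part in the results was not tested. The leukocyte list summed to 19.1 to 85.8 RPKM in HIF1A-KD and 23.5 to 115 RPKM in shCtrl. CD68 held nearly all of that and was lower in HIF1A-KD in 4 of 4 pairs (51.0 against 71.2 RPKM on average), while PTPRC and CD3E were at 0 throughout. The endothelial list, with VWF the highest, summed to 1.39 to 12.8 RPKM in HIF1A-KD and 0.75 to 15.4 RPKM in shCtrl, and the melanocyte list, with MLANA and TYR at 0, to 0.26 to 1.95 RPKM in HIF1A-KD and 0.34 to 0.90 RPKM in shCtrl. The part of these lists was not tested. The muscle genes DES, MYH7 and ACTN2 were at 0 throughout. Simple epithelial keratins (KRT7, KRT8, KRT18 and KRT19, of which KRT19 was the highest) summed to 1101 to 1731 RPKM in HIF1A-KD and 269 to 1128 RPKM in shCtrl, and their part was not tested. Libraries numbered 1 and 2 also stood apart from those numbered 3 and 4, a split that no label names, so values within each set are given where they differ.

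In the tests made here, only corneodesmosin of the 10 transcripts passed between the lines, and that only when libraries of equal number were paired. It also passed in the authors' own comparison, given below. No label states the pairing, which was inferred from these data and is uncertain for numbers 3 and 4. CDSN averaged 5.71 ± 5.53 RPKM in HIF1A-KD and 49.4 ± 62.5 RPKM in shCtrl (SD, n = 4 each), 11.6% of the shCtrl mean. The other 9 transcripts together held 2979 ± 251 RPKM in HIF1A-KD and 2968 ± 220 RPKM in shCtrl (SD, n = 4 each). In such bulk samples fewer cells of a type and less RNA per cell cannot be told apart. All 10 passed the filter of 0.5 RPKM in 4 libraries. In the unpaired limma test, with p-values adjusted over 11899 genes and a threshold of 0.05, 0 of the 10 passed, against 0.042% of all genes tested (0.0252% higher and 0.0168% lower in HIF1A-KD). CDSN alone of them had an unadjusted p under 0.05 (0.00901). Limma-voom on reads recovered from the RPKM also called 0 of them, against 0.0254% of genes (0.00847% higher and 0.0169% lower); CDSN had no readable length and entered that test only with its decoded reads. The groups overlapped for all 10, where 5.4% of tested genes had groups that did not. When the library number entered as a block, called the paired fit below, CDSN fell (1 of 10, against 1.09% of tested genes lower) and none rose (0.74% of tested genes higher). The median log2 change of the 10 was 0.001, and 5 estimates lay above 0, against a median of 0.064 and 58.7% above 0 for all tested genes. The authors' deposited table lists all 10, with CDSN as the only one at an adjusted p under 0.05 (9.02% of its 13627 genes, 5.08% with a negative ratio). There DSG1 had a moderated log2 ratio of 0.66 (adjusted p = 0.130), and the other 8 lay between −0.15 and 0.02.

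**Figure D1:**
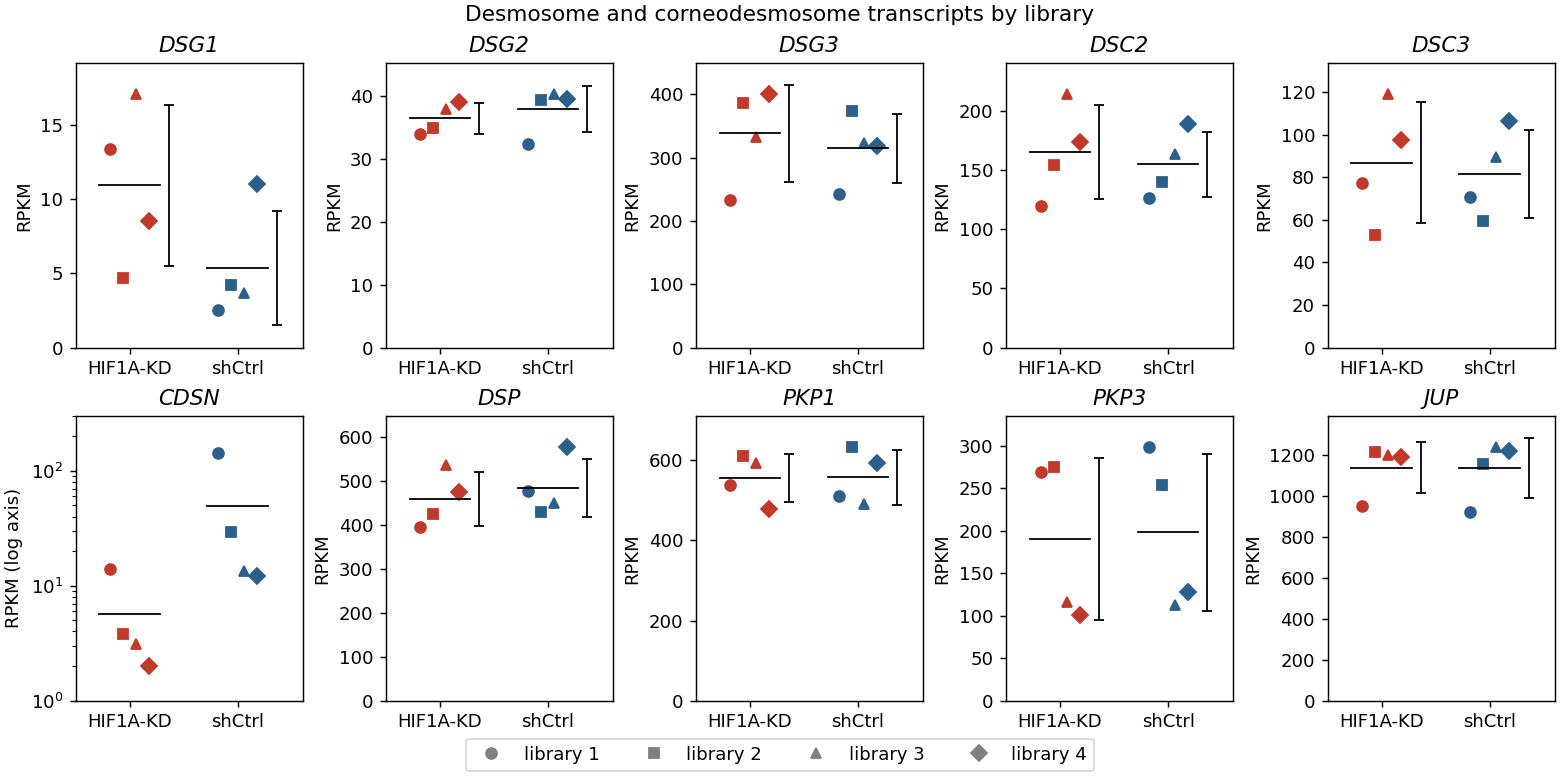
RPKM of the 10 genes (y axis, linear from 0 except for CDSN, which has a log axis) in 4 HIF1A-KD libraries (red, left) and 4 shCtrl libraries (blue, right), with marker shapes for the library number, lines at the mean and bars of 1 SD (not drawn for CDSN). CDSN is lower in HIF1A-KD in all 4 pairs, and PKP3 parts libraries 1 and 2 from 3 and 4 in both lines. All 10 genes overlap between lines.

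Corneodesmosin (CDSN, chromosome 6, 31082865 to 31088252, minus strand, hg19) is a secreted adhesive protein of cornifying cells. It held 13.9, 3.84, 3.08 and 1.99 RPKM in HIF1A-KD libraries 1 to 4, against 142, 29.5, 13.5 and 12.1 RPKM in shCtrl libraries 1 to 4. Each HIF1A-KD library was below the shCtrl library of its number, although HIF1A-KD 1 lay just above shCtrl 3 and 4, so the groups overlap. Library 1 was the highest of its line in both lines. The log2 change was −2.72 with an SE of 0.83 and an adjusted p of 0.370 in the unpaired limma fit, and with an SE of 0.21 and an adjusted p of 0.00488 in the paired limma fit (lower in 4 of 4 pairs, with log2 differences of −3.34 to −2.09; 10.7% of tested genes were lower in all 4). The 95% interval was −4.59 to −0.86 unpaired and −3.22 to −2.22 paired. Without pairing, the exact permutation p of CDSN was 0.0857 (two-sided, 4 against 4, smallest possible 0.0286). Its log2 change was −3.13 in libraries 1 and 2 alone and −2.32 in libraries 3 and 4 alone. Without shCtrl 1 the shCtrl mean was 18.4 RPKM and the unpaired log2 change −1.96. Without HIF1A-KD 1 the HIF1A-KD mean was 2.97 RPKM and the log2 change −3.28. The paired call was lost without the libraries numbered 2 (log2 change −2.66, adjusted p = 0.0727). In the authors' deposited table the moderated log2 ratio of CDSN was −2.55 with an adjusted p of 9.88e-40; its header does not name the direction, which is the same here.

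The scale of the CDSN values is particular, because the table lists the gene on chromosome 6 and on 5 haplotype contigs of hg19 and its length cell is garbled. The digits in that cell repeat the number 15483. With this number as the length, the RPKM values came out at whole reads in all 8 libraries, within 0.01 read: 9843, 3881, 2254 and 1172 reads in HIF1A-KD libraries 1 to 4, and 106720, 19711, 10946 and 8963 reads in shCtrl libraries 1 to 4. The gene spans 5388 bases, less than that number. CDSN was therefore left out of the order of levels below. Its differences between libraries do not depend on the length, but its level does. How the counting treated the 6 copies is not stated. PSORS1C1 overlaps CDSN in the RefSeq table and lies on the opposite strand in the deposited one. It held 1.52 RPKM in HIF1A-KD and 1.71 RPKM in shCtrl on average. Without strand, reads from bases that the 2 genes share cannot be told apart.

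**Figure D2:**
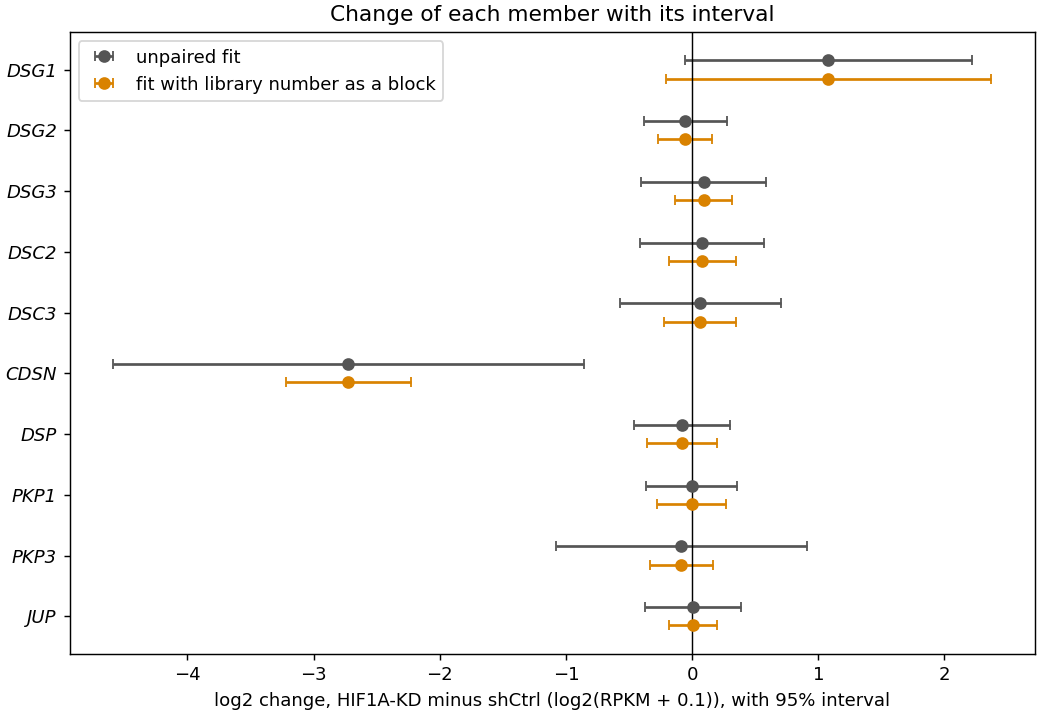
Log2 change of each gene (x axis, HIF1A-KD minus shCtrl on log2(RPKM + 0.1)) with its 95% interval, from the unpaired fit (grey) and from the fit with the library number as a block (orange). The CDSN interval lies below 0 in both fits, the DSG1 interval is wide and includes 0, and the paired intervals of the other 8 genes lie within −0.35 to 0.35.

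The promoter of CDSN (RefSeq, GRCh38.p14, chr6:31120397-31120696, minus strand) is shown because this was the gene that fell. It runs from 250 bases before the start to 50 bases after it, and capitals mark the single match to the core of the HIF binding motif, searched as ACGTG and GCGTG on both strands.
CDSN: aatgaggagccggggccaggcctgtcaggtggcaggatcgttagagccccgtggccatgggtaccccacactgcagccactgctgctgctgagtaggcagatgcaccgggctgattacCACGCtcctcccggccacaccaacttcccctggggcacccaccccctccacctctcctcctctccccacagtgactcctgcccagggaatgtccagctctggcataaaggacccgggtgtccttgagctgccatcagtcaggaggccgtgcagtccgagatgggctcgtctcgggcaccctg
The match reads CACGC here, which is GCGTG on the other strand, and begins 132 bases before the start. Such a match is common: 48.4% of the 35116 promoters of this length in the table hold at least 1, 21.4% an ACGTG and 36.5% a GCGTG. Promoters of 9 of the 10 genes were found, all but that of PKP3. Of their 11 promoters 4 held a match, those of CDSN, both of JUP and 1 of DSC2.

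DSG1 is the desmoglein of the upper epidermal layers and a target of antibodies in pemphigus foliaceus. Here it was the least abundant desmoglein and the most variable member after CDSN. DSG1 (chromosome 18, 28898052 to 28937393, plus strand, hg19) held 13.4, 4.73, 17.1 and 8.52 RPKM in HIF1A-KD libraries 1 to 4, against 2.55, 4.23, 3.70 and 11.0 RPKM in shCtrl libraries 1 to 4. The 2 highest values were those of HIF1A-KD 3 and 1, but shCtrl 4 lay above HIF1A-KD 4 and 2. Its reads numbered 1682 to 4401 in HIF1A-KD and 672 to 2871 in shCtrl, so counting error is small beside this spread. The log2 change was 1.08 (SE 0.50, adjusted p = 0.677, 95% interval −0.06 to 2.21, unpaired limma; SE 0.52, adjusted p = 0.324, 95% interval −0.21 to 2.37, paired limma), and the pair differences ran from −0.37 to 2.35. DSG1 was higher in HIF1A-KD in 3 of 4 pairs and did not pass in any fit. LOC101927718, an entry on the minus strand that overlaps the 3′ end of DSG1 by coordinates, held 0.286, 0.858, 1.132 and 0.788 RPKM in HIF1A-KD against 0.027, 0.241, 0 and 0.218 RPKM in shCtrl. Its groups do not overlap, as for 5.4% of tested genes, but it was too low for the filter and was not tested. Without strand, reads from bases that it shares with DSG1 cannot be told apart.

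DSG3, the desmoglein of the lower epidermal layers and the main antigen of pemphigus vulgaris, supplied most desmoglein RNA in every library. DSG3 (chromosome 18, 29027732 to 29058665) held 233, 387, 332 and 401 RPKM in HIF1A-KD and 243, 374, 324 and 319 RPKM in shCtrl, libraries 1 to 4 in order. Library 1 was the lowest in both lines and the groups overlap (log2 change 0.09, SE 0.22, adjusted p = 0.987 unpaired; SE 0.09, adjusted p = 0.639 paired, limma). DSG2 (29078027 to 29128814), the desmoglein found in nearly all epithelia and in heart muscle, held 33.9, 34.9, 37.9 and 39.0 RPKM in HIF1A-KD, against 32.4, 39.3, 40.4 and 39.5 RPKM in shCtrl. It was among the steadiest genes: the spread of its log2 values over the 8 libraries was 0.11, and 1.21% of tested genes, or 2.77% of those over 20 RPKM, had a smaller one (log2 change −0.05, SE 0.15, adjusted p = 0.988, unpaired limma). Of summed desmoglein RPKM, DSG3 made up 83.2 to 90.7% in HIF1A-KD and 86.3 to 89.6% in shCtrl. DSG1 made up 1.11 to 4.76% in HIF1A-KD and 0.918 to 2.99% in shCtrl. The log2 ratio of DSG1 to DSG3 within a library, which does not depend on scaling, averaged −5.06 ± 1.06 in HIF1A-KD and −6.05 ± 0.81 in shCtrl (SD, n = 4 each; difference 0.99; two-sided exact permutation p = 0.171, adjusted p = 0.60 over 7 ratios tested).

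The promoters of DSG1 (chr18:31317910-31318209, plus strand) and DSG3 (chr18:31447491-31447790, plus strand), both RefSeq on GRCh38.p14, are shown because these paralogs share the longest run of identical bases among the promoters compared. Capitals mark that run of 20 bases.
DSG1: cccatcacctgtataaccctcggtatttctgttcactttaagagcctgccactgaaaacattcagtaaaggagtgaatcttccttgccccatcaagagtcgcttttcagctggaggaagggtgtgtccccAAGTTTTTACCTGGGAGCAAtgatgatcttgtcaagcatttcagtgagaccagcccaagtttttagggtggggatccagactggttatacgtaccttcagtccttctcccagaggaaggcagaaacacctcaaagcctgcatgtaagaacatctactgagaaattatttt
DSG3: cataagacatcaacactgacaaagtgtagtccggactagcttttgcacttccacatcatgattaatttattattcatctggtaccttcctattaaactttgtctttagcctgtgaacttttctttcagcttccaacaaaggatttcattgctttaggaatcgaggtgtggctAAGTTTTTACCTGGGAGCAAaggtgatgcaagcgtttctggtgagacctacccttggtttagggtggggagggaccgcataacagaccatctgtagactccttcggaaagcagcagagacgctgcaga
Among 53 pairs of promoters of different members, read on each gene's own strand, the next longest shared run had 12 bases. Of the 35116 promoters only these 2 hold the run. It ends 101 bases before the start of DSG1 and 59 bases before that of DSG3. Neither promoter holds ACGTG or GCGTG.

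The desmocollins DSC2 and DSC3 pair with desmogleins across the intercellular space. DSC2 (chromosome 18, 28645942 to 28682388, minus strand) held 119, 154, 214 and 173 RPKM in HIF1A-KD, against 127, 140, 163 and 189 RPKM in shCtrl, libraries 1 to 4 in order. DSC3 (28569331 to 28622781, minus strand) is typical of the basal and lower suprabasal layers of epidermis. It held 77.4, 52.8, 119 and 97.6 RPKM in HIF1A-KD, against 70.6, 59.4, 89.7 and 106 RPKM in shCtrl. For both genes libraries 3 and 4 were higher than libraries 1 and 2 in each line, and the lines overlap. The log2 changes were 0.08 (SE 0.22, adjusted p = 0.988) for DSC2 and 0.06 (SE 0.28, adjusted p = 0.997) for DSC3 in the unpaired limma fit. DSC2 made up 60.7 to 74.5% of desmocollin RPKM in HIF1A-KD and 64.0 to 70.2% in shCtrl, and the log2 ratio of DSC2 to DSC3 differed by 0.018 (exact permutation p = 0.943, two-sided).

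One of the 2 listed promoters of DSC2 (RefSeq, GRCh38.p14, chr18:31101211-31101510, minus strand) is shown because it was the only member promoter with ACGTG. Capitals mark its 3 copies.
DSC2: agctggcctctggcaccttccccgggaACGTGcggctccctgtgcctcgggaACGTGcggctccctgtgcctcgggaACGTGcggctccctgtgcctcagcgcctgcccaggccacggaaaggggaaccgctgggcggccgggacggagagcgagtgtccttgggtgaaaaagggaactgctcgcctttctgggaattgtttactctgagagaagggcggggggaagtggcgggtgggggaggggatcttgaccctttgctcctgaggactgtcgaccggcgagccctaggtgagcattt
The copies begin 223, 198 and 173 bases before the start and stand in a repeated stretch. Of all promoters 10.1% hold 3 or more matches of either form. The DSC2 transcript, described above, did not pass in any fit.

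The cadherin genes lie side by side on chromosome 18 in the order DSC3, DSC2, DSC1, DSG1, DSG4, DSG3 and DSG2. The 2 that are not among the 10 were near the limit of detection: DSC1 averaged 0.50 ± 0.30 RPKM in HIF1A-KD and 0.38 ± 0.23 RPKM in shCtrl and was not tested, and DSG4, known mostly from hair, averaged 0.51 ± 0.49 RPKM in HIF1A-KD and 0.59 ± 0.44 RPKM in shCtrl (SD, n = 4 each), with a log2 change of −0.41 and a limma adjusted p of 0.985 unpaired. The antisense-strand entries LOC101927698, which overlaps DSC2, and LOC100652770, which overlaps DSG2, held at most 0.042 and 0 RPKM in any library.

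The plaque genes JUP, PKP1 and DSP were the most abundant members and varied little. JUP (chromosome 17, 39910859 to 39942964, minus strand), whose product plakoglobin also serves adherens junctions, held 950, 1211, 1199 and 1187 RPKM in HIF1A-KD, against 920, 1156, 1240 and 1218 RPKM in shCtrl. Library 1 was the lowest in both lines, and pair differences ran from −0.05 to 0.07 on the log2 scale. The log2 change was 0.007, with a 95% interval of −0.37 to 0.38 unpaired and −0.18 to 0.20 paired (limma; adjusted p = 0.999 and 0.973). DSP (chromosome 6, 7541870 to 7586946, plus strand) held 396, 426, 537 and 476 RPKM in HIF1A-KD, against 478, 429, 451 and 579 RPKM in shCtrl. The log2 change of DSP was −0.08 (paired 95% interval −0.35 to 0.20; adjusted p = 0.985 unpaired and 0.748 paired, limma). PKP1 (chromosome 1, 201252580 to 201302121, plus strand), the plakophilin lost in ectodermal dysplasia with skin fragility, held 539, 611, 594 and 477 RPKM in HIF1A-KD, against 510, 634, 492 and 594 RPKM in shCtrl. Its log2 change was −0.004 (paired 95% interval −0.28 to 0.27; adjusted p = 1.0 unpaired and 0.989 paired, limma). For these 3 genes the lines overlap throughout, and of all tested genes 5.36%, 6.78% and 3.83% had a smaller spread than JUP, DSP and PKP1. Among genes over 20 RPKM these shares were 10.3%, 12.2% and 7.3%. The log2 ratio of JUP to DSP differed by 0.085 between the lines (exact permutation p = 0.571, two-sided).

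PKP3, a plakophilin that binds most desmosomal cadherins, differed far more between libraries 1 and 2 and libraries 3 and 4 than between the hairpins. PKP3 (chromosome 11, 394217 to 404908, plus strand) held 269, 275, 116 and 100.3 RPKM in HIF1A-KD, against 299, 254, 113 and 127 RPKM in shCtrl, libraries 1 to 4 in order. Libraries 1 and 2 averaged 274 RPKM and libraries 3 and 4 averaged 114 RPKM over both lines, with no overlap between these sets. The log2 change with HIF1A-KD was −0.08 (unpaired 95% interval −1.08 to 0.91, paired −0.33 to 0.16; adjusted p = 0.998 and 0.693, limma). It was −0.02 among libraries 1 and 2 and −0.15 among libraries 3 and 4. PKP1 did not part the same way, so PKP1 made up 66.7 and 68.9% of the RPKM of both plakophilins in HIF1A-KD 1 and 2 and 83.6 and 82.6% in HIF1A-KD 3 and 4. In shCtrl the shares were 63.0, 71.4, 81.3 and 82.3% for libraries 1 to 4. The labels do not say what sets these libraries apart.

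By RPKM, the 9 genes other than CDSN stood in the same order in both lines: JUP, PKP1, DSP, DSG3, PKP3, DSC2, DSC3, DSG2 and DSG1. Of these 9, JUP was the highest in every library and DSG1 the lowest. Within libraries, DSG3 was above PKP3 in 6 of 8 and PKP3 above DSC2 in 4 of 8, so the order of these neighbours is within the spread. Every other pair of neighbours stood in this order in 8 of 8 libraries, although the ranges over libraries of PKP1 and DSP, and of DSP and DSG3, overlap.

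**Figure D3:**
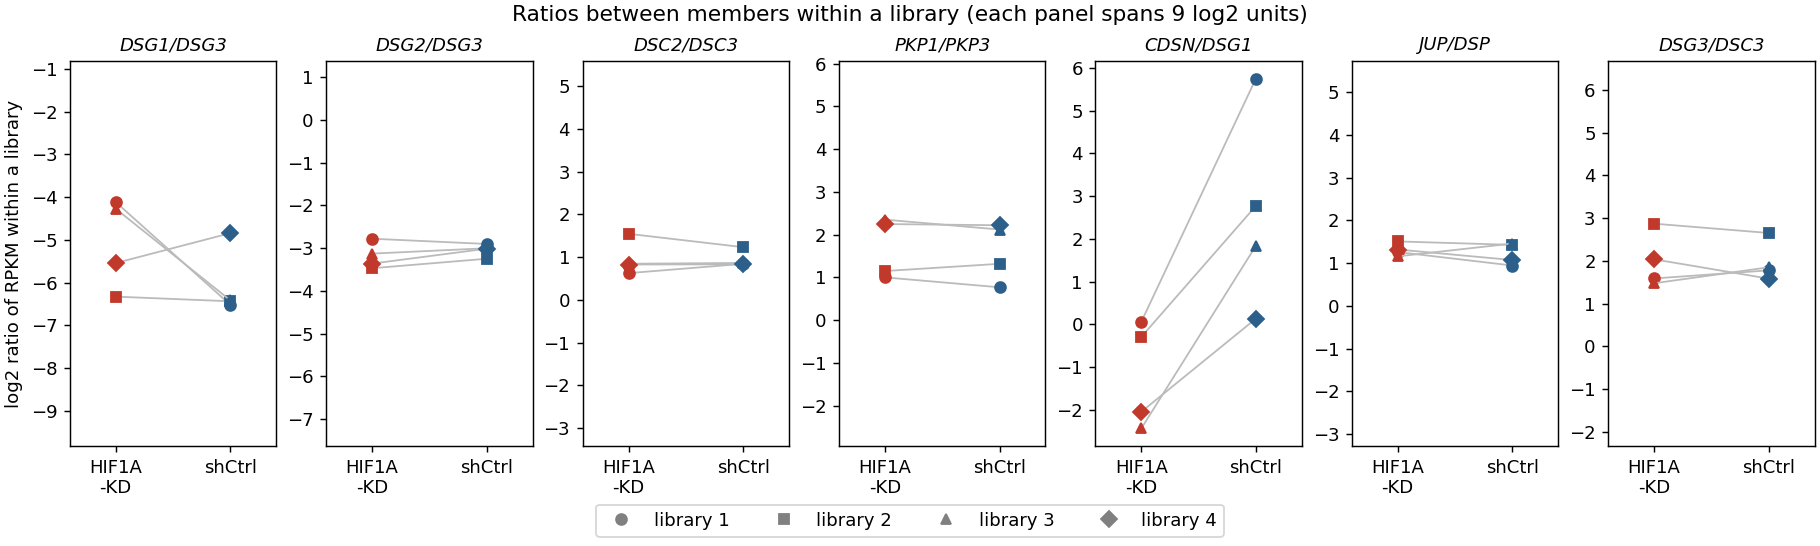
Log2 ratio of 2 members' RPKM within each library (y axis, each panel spanning the same number of log2 units) for HIF1A-KD (red, left) and shCtrl (blue, right), with lines joining libraries of the same number. In the CDSN/DSG1 panel the HIF1A-KD points lie below all shCtrl points, with differences of −5.69 to −2.18 within a number, and in the other panels the lines overlap.

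Of the 7 ratios between members, that of CDSN to DSG1 was the one whose lines did not overlap. The values themselves rest on the doubtful CDSN length, and only their differences between libraries do not. The log2 value was 0.059, −0.29, −2.44 and −2.05 in HIF1A-KD, against 5.75, 2.77, 1.84 and 0.13 in shCtrl, libraries 1 to 4 in order. It averaged −1.18 ± 1.24 in HIF1A-KD and 2.62 ± 2.35 in shCtrl (SD, n = 4 each), a difference of −3.80, lower in 4 of 4 pairs. Without 1 library the difference ran from −4.63 to −2.76, the last without shCtrl 1. The two-sided exact permutation test gave p = 0.0286, the smallest possible, and adjusted p = 0.20 over the 7 ratios, so it did not pass the correction. With numbers as pairs the exact sign-flip test gave p = 0.125, also its smallest value. The ratios of DSG2 to DSG3 (difference −0.14, exact permutation p = 0.457), PKP1 to PKP3 (0.081, exact p = 0.80) and DSG3 to DSC3 (0.027, exact p = 0.943) did not pass either.

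The genes nearest in pattern to CDSN and to DSG1 were found over the same 8 libraries, so that their changes between the lines are fixed by the choice and were given no test. Nearness was the root mean square difference of log2 values centred on each gene, over 8 libraries and 7209 genes with a mean of at least 5 RPKM. For CDSN the 5 nearest were the late cornified envelope genes LCE3D (0.33) and LCE3E (0.38), the carboxypeptidase gene CPA4 (0.51), the gasdermin gene GSDMA (0.58) and the proline-rich envelope gene SPRR2G (0.61), against a spread of 1.84 for CDSN itself. CPA4, as an example, held 7.52, 5.26, 3.88 and 3.94 RPKM in HIF1A-KD, against 121, 25.5, 13.4 and 11.1 RPKM in shCtrl. In each of the 5 shCtrl 1 was the highest library. For DSG1 the nearest was KRT1 (0.36), the keratin of epidermal suprabasal cells, with 557, 225, 574 and 317 RPKM in HIF1A-KD and 149, 151, 245 and 333 RPKM in shCtrl. It was followed by CAPNS2 (0.37), CA11 (0.44), SH3RF2 (0.45) and PDCD4 (0.45), against a spread of 0.91 for DSG1.

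**Figure D4:**
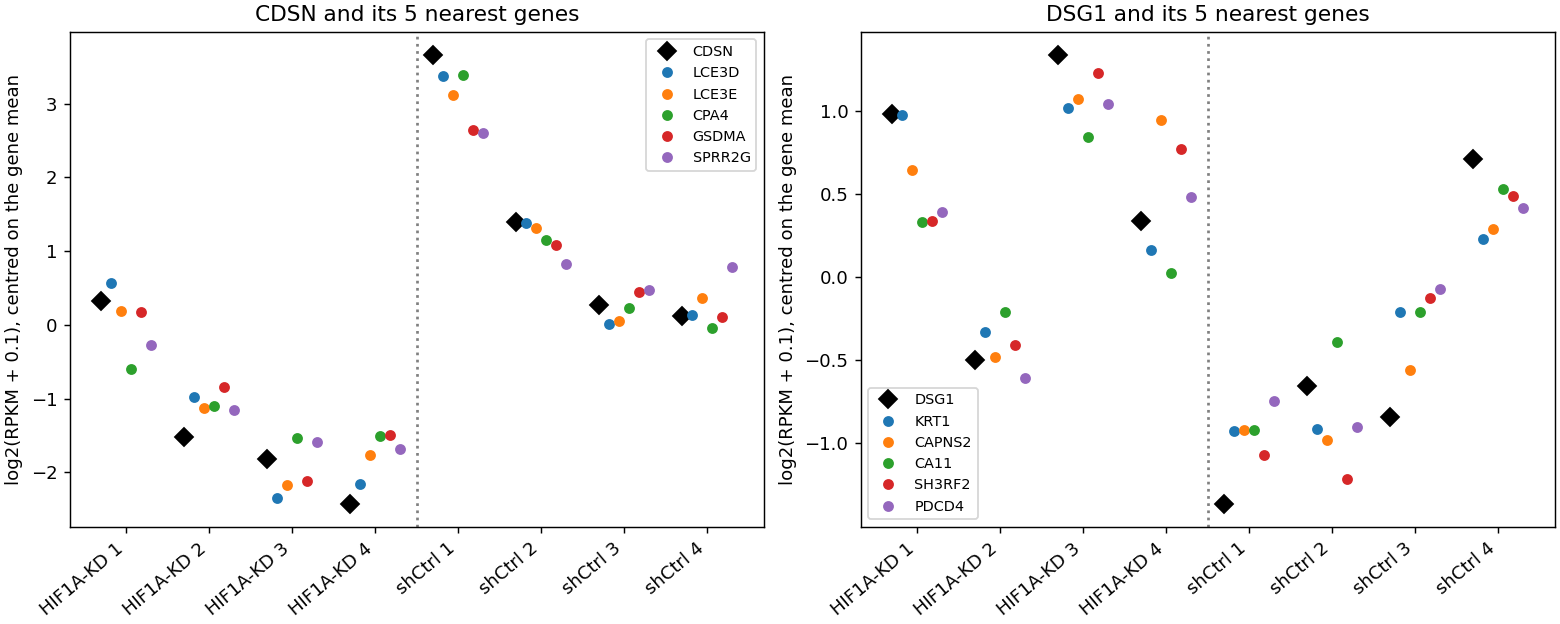
Log2(RPKM + 0.1) of CDSN (left) and DSG1 (right), as black diamonds, with their 5 nearest genes, each centred on its own mean over 8 libraries (y axis), by library (x axis, HIF1A-KD left of the dotted line and shCtrl right). The CDSN group is highest in shCtrl 1. The DSG1 group is highest in HIF1A-KD 3 and low in HIF1A-KD 2 and shCtrl 1 and 2. DSG1 itself is also low in shCtrl 3 (3.70 RPKM, against 4.73 RPKM in HIF1A-KD 2).

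Other desmosome and plakin genes gave no call. Of 7 genes 6 could be tested, and 0 rose and 0 fell in either limma fit. Of all tested genes 0.042% passed unpaired and 1.83% paired. The median log2 change of the list was 0.19. PERP, a tetraspan membrane protein of desmosomes, held 939 ± 145 RPKM in HIF1A-KD and 787 ± 113 RPKM in shCtrl (SD, n = 4 each; log2 change 0.25, paired adjusted p = 0.183). Periplakin (PPL) held 388 ± 74.6 RPKM in HIF1A-KD and 313 ± 25.0 RPKM in shCtrl (log2 change 0.29, paired adjusted p = 0.169). Envoplakin (EVPL), its partner in the cornified envelope scaffold, held 100.2 ± 26.6 RPKM in HIF1A-KD and 63.2 ± 5.53 RPKM in shCtrl (log2 change 0.63, limma adjusted p of 0.421 unpaired and 0.0583 paired). Each of these 3 was higher in HIF1A-KD in 4 of 4 pairs. Of tested genes 29.3% moved the same way, up or down, in all 4 pairs, and 10.7% were lower in all 4. The EVPL groups did not overlap, as for 5.4% of tested genes.

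Among proteases that cut junction proteins, 1 of 15 tested fell in the paired fit (1.09% of tested genes lower) and 0 rose, and 0 passed unpaired. KLK5, a kallikrein that cleaves corneodesmosin and DSG1 in skin, averaged 55.8 ± 13.9 RPKM in HIF1A-KD and 149 ± 76.7 RPKM in shCtrl (SD, n = 4 each). Its log2 change was −1.32, with limma adjusted p of 0.245 unpaired and 0.0224 paired. The most abundant ones did not pass: cathepsin D (CTSD) at 396 ± 88.1 RPKM in HIF1A-KD and 381 ± 53.8 RPKM in shCtrl, prostasin (PRSS8) at 128 ± 20.8 RPKM in HIF1A-KD and 188 ± 58.1 RPKM in shCtrl, and cathepsin V (CTSV) at 113 ± 57.5 RPKM in HIF1A-KD and 165 ± 55.7 RPKM in shCtrl. The median log2 change of the list was −0.27, with 4 of 15 estimates above 0. The other listed kallikreins are added after their values were seen. KLK6, KLK10 and KLK14 had log2 changes of −1.84, −0.65 and −2.38. Each was lower in 4 of 4 pairs (10.7% of tested genes) with no overlap (5.4%). They passed neither fit (paired limma adjusted p = 0.0902, 0.0559 and 0.0733). KLK7, KLK8, KLK11 and KLK13 overlapped between the lines, with log2 changes of −0.25, −0.06, 0.16 and 0.28. Of the protease inhibitors 6 of 7 could be tested. In the paired fit 2 fell (1.09% of tested genes lower) and 0 rose (0.74% higher). Unpaired, 0 of them passed (0.042% of tested genes). Their median log2 change was −0.60, with 2 of 6 estimates above 0. SLPI, an inhibitor of leukocyte elastase that also inhibits KLK7, averaged 4163 ± 318 RPKM in HIF1A-KD and 8806 ± 1499 RPKM in shCtrl (log2 change −1.07, adjusted p = 0.0629 unpaired and 0.0104 paired, limma). Cystatin M/E (CST6), an inhibitor of cathepsins V and L, averaged 61.8 ± 16.6 RPKM in HIF1A-KD and 142 ± 64.5 RPKM in shCtrl (log2 change −1.15, adjusted p = 0.325 unpaired and 0.0495 paired, limma). Elafin (PI3) did not pass (log2 change −1.10, paired adjusted p = 0.0904), nor did SPINK5, which encodes LEKTI, the inhibitor of KLK5 and KLK7, at 895 ± 204 RPKM in HIF1A-KD and 588 ± 179 RPKM in shCtrl (log2 change 0.63, paired adjusted p = 0.0544).

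**Figure D5:**
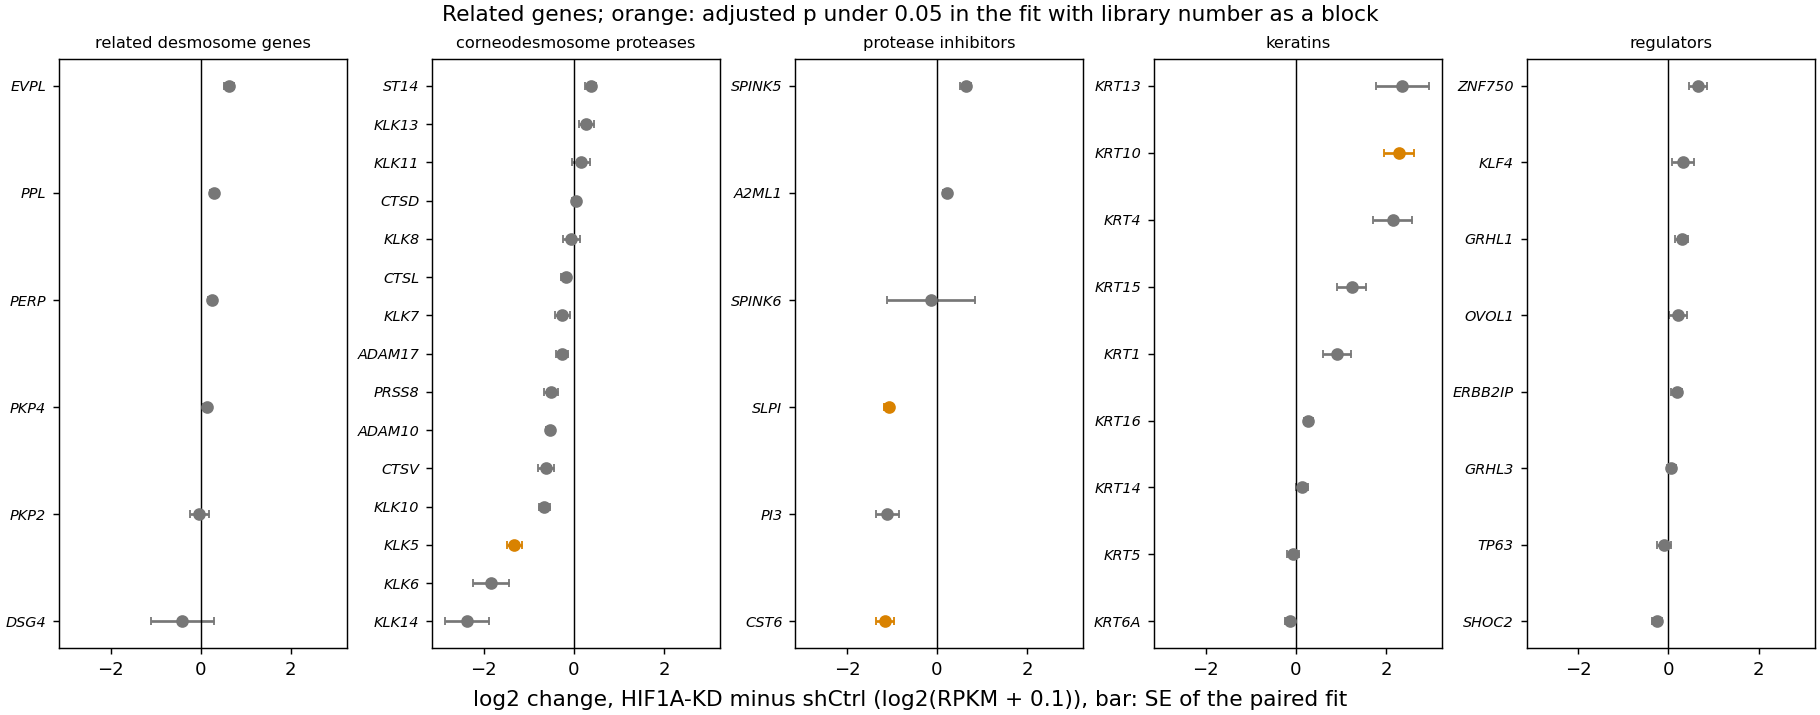
Log2 change (x axis, HIF1A-KD minus shCtrl) of the tested genes of 5 related lists, with bars of 1 SE from the paired fit, and orange for an adjusted p under 0.05 in that fit. KLK5, SLPI and CST6 lie below 0 and KRT10 above 0 among the orange points, and no other desmosome or regulator gene is orange.

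Among the keratins that desmosomes anchor, 1 of 9 rose in the paired fit (0.74% of tested genes higher) and 0 fell, and 0 passed unpaired. KRT10, the early suprabasal keratin and partner of KRT1, averaged 898 ± 553 RPKM in HIF1A-KD and 163 ± 39.2 RPKM in shCtrl (SD, n = 4 each). Its log2 change was 2.30, with limma adjusted p of 0.0873 unpaired and 0.0432 paired. The abundant keratins KRT6A, KRT5 and KRT16 did not pass, with log2 changes of −0.14, −0.06 and 0.28 and paired adjusted p of 0.515, 0.825 and 0.187 (limma). The median log2 change of the list was 0.91, with 7 of 9 estimates above 0. KRT4 and KRT13, the keratin pair of upper esophageal layers, and KRT15, a keratin of basal cells, are added after their values were seen. KRT4 held 1521 ± 355 RPKM in HIF1A-KD and 386 ± 242 RPKM in shCtrl, with no overlap (log2 change 2.15, paired limma adjusted p = 0.0786). KRT13 held 801 ± 330 RPKM in HIF1A-KD and 253 ± 289 RPKM in shCtrl (log2 change 2.37, paired limma adjusted p = 0.116). KRT15 held 479 ± 277 RPKM in HIF1A-KD and 208 ± 125 RPKM in shCtrl (log2 change 1.24, paired limma adjusted p = 0.127). Each of these added keratins was higher in HIF1A-KD in 4 of 4 pairs and passed neither fit. Of tested genes 29.3% moved the same way, up or down, in all 4 pairs, and 5.4% had groups that did not overlap. Of 8 factors known to act on desmosomal genes or on DSG1 signalling, 0 passed either fit (0.042% of tested genes unpaired and 1.83% paired). Their median log2 change was 0.20, with 6 estimates above 0. GRHL3 held 109 ± 30.0 RPKM in HIF1A-KD and 105 ± 28.5 RPKM in shCtrl, KLF4 120 ± 42.7 RPKM in HIF1A-KD and 98.9 ± 44.8 RPKM in shCtrl, and ZNF750 102 ± 33.8 RPKM in HIF1A-KD and 65.0 ± 24.1 RPKM in shCtrl (paired adjusted p = 0.745, 0.498 and 0.145, limma).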

How the data were processed

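Expression was measured by RNA sequencing of total RNA in 8 libraries, grouped by their titles. Per the submitters' processing notes, HTSeq 0.6.1, TopHat2 2.0.13 and Bowtie2 2.2.3.0 were among the tools. The notes name hg19 and GRCh38 without a role, and haplotype contig names in the deposited table are those of hg19. No source used here gives the strand setting of the counting. The expression table holds deposited RPKM made by the authors, although it is named for counts. RPKM times gene length gave whole reads, within 0.01, for 100.0% of the 24772 genes with a readable length. A second deposited table by the authors gives log2 ratios and p-values of their own comparison, whose tool is not given.

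Two-sided unpaired tests used limma 3.58.1 in R 4.3.3, moderated with the trend and robust options, on log2(RPKM + 0.1), after a filter of at least 0.5 RPKM in at least 4 libraries. Fold changes are on that scale, which understates those of low genes. P-values were adjusted by Benjamini and Hochberg over all genes tested. Ratios were tested with exact permutations (scipy 1.17.1). The fits were tested on simulated data. Alternatives were other pseudocounts, filters and scaling, limma-voom on recovered reads, the split of libraries as a term, the library number as a block, and leaving out libraries or pairs. Sequences are from RefSeq (GRCh38.p14) and are not tied to the hg19 coordinates.

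Across genes, deviations from the group mean correlated between libraries of equal number at 0.754 (1), 0.73 (2), 0.252 (3) and 0.257 (4). Each exceeded 0.1, so equal numbers were treated as pairs on the strength of the data, since no label states it. For numbers 3 and 4 this is uncertain, since HIF1A-KD 3 correlated more with shCtrl 4 (0.613) and HIF1A-KD 4 with shCtrl 3 (0.463). The members and the gene lists were chosen with earlier results of these data known. Named were all members, called members of each related list with its 3 most abundant genes, overlapping genes, and the 5 nearest genes of CDSN and DSG1. The listed kallikreins other than KLK5, with KRT4, KRT13 and KRT15, were added after their values were seen. PKP1 also lies within the range given for SRGAP2D, a gene listed over several copies.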

Additional observations from a re-analysis of the deposited data

Results flagged for a closer look

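Of 34 groups of 4 values screened (10 genes and 7 ratios in each line), 6 had a library whose gap to the nearest other was a larger part of the group's range than Dixon's 95% limit for 4 values allows. Chance alone marks about 1 group in 20. Library 1 was the one apart in 4 of the 6. CDSN was high in HIF1A-KD 1 (gap 0.845 of the range) and in shCtrl 1 (0.867), which held 13.9 and 142 RPKM. JUP was low in HIF1A-KD 1 (0.909), at 950 RPKM against at least 1187 RPKM in the other HIF1A-KD libraries. DSG2 was low in shCtrl 1 (0.872), at 32.4 RPKM against at least 39.3 RPKM in the other shCtrl libraries. The ratio of DSG1 to DSG3 was high in shCtrl 4 (0.938), at a log2 value of −4.84 against at most −6.41 in the others. The ratio of DSC2 to DSC3 was high in shCtrl 2 (0.921), at 1.23 against at most 0.86.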

How the results depend on the processing

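The number of genes called unpaired was 5. It was 3 with a pseudocount of 1 or 0.01 or with limma-voom, 1 with no filter, 8 with median-of-ratios scaling and 102 with the split of libraries as a term. It was 218 with the library number as a block. Without 1 pair the block called between 1 and 195 genes (33, 1, 195 and 182 without pairs 1 to 4), and without 1 library the unpaired fit called between 0 and 3 (783 to 975 genes had an unadjusted p under 0.05 where it called 0). Libraries numbered 1 and 2 alone called 0, where 644 genes had an unadjusted p under 0.05; this and the fit on libraries 3 and 4 were chosen after seeing the data. The log2 change of CDSN passed with the block (−2.72), and with the block without pair 1 (−2.52), 3 (−2.93) or 4 (−2.78), but not with the split of libraries as a term (adjusted p = 0.0684) or with limma-voom on its reads (adjusted p = 0.346). Its unpaired value ran from −3.28 to −1.96 without 1 library. The block changed no other call among the members. For the ratios it says nothing, since the smallest p of the sign-flip test of pairs is 0.125 and none could pass.

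Estimates near 0 changed sign. Median-of-ratios scaling, which moved the median of all genes from 0.064 to −0.008, gave −0.0094 for DSC3 and −0.066 for JUP. Libraries 1 and 2 alone gave −0.0041 for DSG3, −0.018 for DSC3 and 0.013 for PKP1, and libraries 3 and 4 alone gave −0.042 for JUP. With the block less 1 pair, DSC2 ran from −0.023 to 0.15, DSC3 from −0.053 to 0.14, PKP1 from −0.096 to 0.099 (0.012 without pair 2), PKP3 from −0.15 to 0.0012 and JUP from −0.013 to 0.025 (−0.0059 without pair 1). Without 1 library, unpaired, DSG3 ran from −0.030 to 0.26, DSC2 from −0.054 to 0.23, DSC3 from −0.11 to 0.28, DSP from −0.16 to 0.011, PKP1 from −0.062 to 0.066, PKP3 from −0.31 to 0.17 and JUP from −0.090 to 0.091. Among the ratios, DSC2/DSC3 ran from −0.18 to 0.13, PKP1/PKP3 from −0.20 to 0.31, JUP/DSP from −0.0084 to 0.16 and DSG3/DSC3 from −0.27 to 0.26. DSG1 (0.80 to 1.49) and DSG2 (−0.13 to −0.020) kept their sign without any 1 library. Among the ratios, DSG1/DSG3 ran from 0.67 to 1.41, DSG2/DSG3 from −0.28 to −0.049 and CDSN/DSG1 from −4.63 to −2.76. All members had at least 672 reads in every library. A single ratio at the smallest possible exact p does not pass adjustment over 7.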
